A study of Mus musculus with 29 samples.

Results

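H3K79me2, dimethylation of lysine 79 of histone H3, was followed in RAW264.7 cells through a lipopolysaccharide (LPS) time course by chromatin immunoprecipitation and sequencing. The broad peak lists of 3 samples were used: untreated cells, cells given LPS at 100 ng/ml for 1 h, and cells given the same dose for 4 h. On chromosomes 1 to 19 and X these lists hold 40713 of the 1190714 peaks in the 26 lists of the series. H3K79me2 peaks that overlapped by at least 1 bp were merged, which gave 14781 regions. Each region was then described by the times at which it held a peak. RAW264.7 is a macrophage line of mouse origin that was established with Abelson leukaemia virus, so the cells are a transformed line in culture and not primary macrophages. The 3 conditions share no drug or genetic change according to the labels. LPS, a component of the bacterial outer membrane, activates macrophages through Toll-like receptor 4. The series holds 29 samples, and its lists of H3K4me3, H3K36me3, H3K36me2, H3K27ac, H3K4me1 and H3K27me3 at the same times, with PU.1 in untreated cells, were set beside H3K79me2. Each mark and time is 1 library without replicates. Differences are therefore between single libraries, have no measured spread and carry no p-value. Intervals in brackets are 95% intervals (Wilson for shares, binomial for medians) that treat regions as independent and cover counting error only. The read depth of each library is unknown.

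H3K79me2 is laid down by a single methyltransferase, DOT1L, which is unusual among histone lysine methyltransferases in having no SET domain. DOT1L travels with complexes that bind elongating RNA polymerase II, and the mark typically starts just inside an active promoter and reaches into the first part of the gene. H3K4me3 marks the promoter itself, H3K27ac marks active promoters and enhancers, and H3K36me3 is placed further into gene bodies by SETD2, which rides on the elongating polymerase. H3K36me2 is made by other enzymes, such as those of the NSD family, and covers broader stretches, including many enhancers. In macrophages LPS switches on a large transcriptional programme within the hours studied here. No gene annotation or sequence of the mm9 build was used, so regions are given by mm9 position (1-based) without gene names or sequences.

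The other marks placed the H3K79me2 regions where the mark is known to lie. In untreated cells H3K36me3 peaks covered 52.7% of the length of the 14781 regions and H3K4me1 peaks 54.1%. H3K27me3, the mark of Polycomb repression, covered 0.206% of that length before LPS, 0.202% at 1 h and 0.236% at 4 h. An H3K4me3 peak overlapped 59.1% of untreated H3K79me2 peaks (7948 of 13457, 58.2 to 59.9).

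H3K79me2 was present at all 3 times in 9886 of the 14781 regions (66.9%, 66.1 to 67.6), and these held 95.1% of the merged length. The regions of the 6 incomplete patterns were short. Regions of all 3 times had a median width of 6596 bp, against 809 bp for the 723 regions found in untreated cells only, 799 bp for the 1147 found at 1 h only and 795 bp for the 1600 found at 4 h only. Merged regions present at 2 of the times had larger medians: the 290 of untreated cells and 1 h had a median of 1582 bp, the 320 of untreated cells and 4 h one of 1505 bp, and the 815 shared by both LPS times one of 1669 bp. A merged region is the union of its peaks, which widens those of several times by construction. The peaks themselves had medians of 4179 bp before LPS, 4898 bp at 1 h and 5270.5 bp at 4 h in the regions of all 3 times, and of 924 to 1154.5 bp in the regions of 2 times. More regions were gained than lost after LPS. At 1 h, 1962 of the 13181 regions of those lists were gained (14.9%) and 1043 were lost (7.91%), and at 4 h 2415 of 13634 were gained (17.7%) and 1013 were lost (7.43%). Regions of all 3 times numbered 5372 when H3K79me2 peaks were required to have a −log10 q of 5 or more. Regions of a single time then rose in number, to 1032 of untreated only, 1606 of 1 h only and 1892 of 4 h only. That threshold is no check on strong peaks. Across the 7535 regions with 1 peak at each time the −log10 q correlated between untreated and 4 h lists with a Spearman rho of 0.417, and the widths with 0.949. With so little agreement it is not certain that the deposited −log10 q and fold enrichment of a peak belong to its interval, and each value given under a threshold on them carries this doubt. Between 1 h and 4 h, 1920 of 14058 regions appeared (13.7%) and 1437 disappeared (10.2%).

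**Figure D1:**
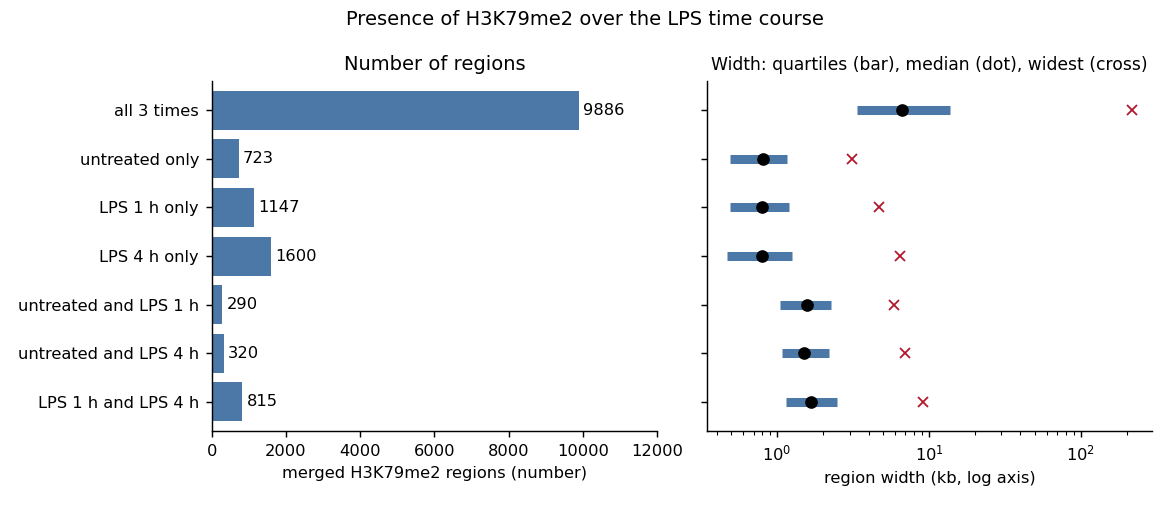
Left, the number of merged H3K79me2 regions in each of the 7 presence patterns; right, their width in kb on a log axis, with the quartiles as a bar, the median as a dot and the widest region as a cross. The 9886 regions of all 3 times have a median merged width of 6596 bp, and the medians of the other patterns lie between 795 and 1669 bp.

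Gains against the untreated list outnumbered losses on each of the 20 chromosomes at both LPS times. At 1 h the ratio of gained to lost regions ranged from 1.48 on chromosome 17 (71 and 48) to 2.91 on X (64 and 22), and at 4 h from 1.68 on X (42 and 25) to 3.95 on chromosome 10 (146 and 37). Chromosomes of the same 3 libraries are not replicates. The length covered was higher at 4 h than in untreated cells on each of the 20 chromosomes. On 19 of them it was also higher at 4 h than at 1 h. The exception was X, with 2.57 Mb before LPS, 2.85 Mb at 1 h and 2.74 Mb at 4 h.

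The regions of incomplete patterns lay near those present throughout. The median distance from an untreated-only region to the nearest region of all 3 times was 4.35 kb, and it was 5.45 kb for 1 h only, 5.15 kb for 4 h only and 5.44 kb for the regions of both LPS times. Within 5 kb lay 52.8% of untreated-only, 47.5% of 1 h only and 49.3% of 4 h only regions. Within 1 kb lay 14.7% of untreated-only regions, against 8.98% of 1 h only and 9.19% of 4 h only. Peaks of the same list were never that close, the smallest gap being 1217 bp. A distance within 1 kb therefore needs a neighbour that reached further at another time. The median deposited −log10 q of the peaks was 10.9 for untreated only, 11.6 for 1 h only and 11.9 for 4 h only. Their median deposited fold enrichment was 3.22, 3.47 and 4.29, and for the peaks of all-times regions it was 3.40 before LPS, 3.70 at 1 h and 4.60 at 4 h. PU.1, the transcription factor that sets macrophage identity, had a peak in untreated cells in 72.0% of the all-times regions and in 8.85% to 22.0% of the regions of the other patterns. Width differs between these patterns too, and its part in these shares was not tested.

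More regions went from several H3K79me2 peaks to 1 than from 1 to several. A fall to 1 peak can be a join or the loss of a peak, and a rise a split or a gain. These counts do not tell them apart. Among the regions of all 3 times, 942 held several peaks in untreated cells and 1 peak at 1 h, and 405 held 1 peak in untreated cells and several at 1 h. At 4 h these counts were 1110 and 396. From 1 h to 4 h they were 773 and 596. The mean number of peaks per all-times region was 1.23 before LPS, 1.14 at 1 h and 1.11 at 4 h, so that 12119, 11250 and 10996 peaks lay in the same 9886 regions. Peaks of at least 20 kb numbered 1235 before LPS, 1373 at 1 h and 1410 at 4 h. A region on chromosome 10 (66524414 to 66700987), the third widest of all, held 3 peaks before LPS, 2 at 1 h and 1 at 4 h. The order did not hold for every region: one on chromosome 9 (47337375 to 47519642) held 5, 1 and 4 peaks.

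Domain extension was measured in the 7535 regions that held exactly 1 peak at each time. Their median peak width was 4101 bp in untreated cells, 4423 bp at 1 h and 4606 bp at 4 h. The median change of a domain from untreated cells was 166 bp at 1 h (150 to 181) and 327 bp at 4 h (305 to 342), and the summed change was 2.12 Mb and 3.43 Mb. At 1 h, 1327 domains grew by 1 kb or more (17.6%) and 486 shrank by as much (6.45%). At 4 h, 1743 grew (23.1%) and 402 shrank (5.34%). Both LPS times are compared with the same untreated library. Compared directly, 1146 domains grew (15.2%) and 665 shrank (8.83%) from 1 h to 4 h, with a median change of 146 bp (128 to 164).

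Growth was found at all widths. In the narrowest quartile of domains by untreated width the median change at 4 h was 400 bp (364 to 432), in the second quartile 228 bp, in the third 331 bp and in the widest 341 bp (295 to 380). Shrinkage by 1 kb or more at 4 h was seen in 0.849% of the narrowest quartile, whose domains were no wider than 1903.5 bp, which limits it. It was seen in 8.01% of the second quartile, 5.74% of the third and 6.74% of the widest. The untreated width enters both the grouping and the change.

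The other marks had their own courses, measured in the same way with 1 peak at each time. H3K36me2 domains had a median change of 290 bp at 1 h and 501 bp at 4 h, and 32.2% of 19017 grew by 1 kb or more at 4 h while 3.06% shrank. H3K36me3 domains had medians of −6 and −83 bp, and at 4 h 9.88% of 13406 grew and 15.9% shrank. H3K4me3 domains had medians of 0 and 68 bp, and H3K27ac domains of −176 and −10 bp. Among these marks H3K79me2 and H3K36me2 were those with positive medians at both times. The total length of the H3K36me2 list at 4 h was 1.24 times its untreated length, and that of H3K79me2 1.09 times. The ratio was 1.17 for H3K27me3, 1.09 for H3K27ac, 1.08 for H3K4me3, 1.04 for H3K4me1 and 0.976 for H3K36me3. A longer list at 4 h was thus not particular to H3K79me2 and H3K36me2. The median deposited fold enrichment over all H3K79me2 peaks also rose, from 3.38 before LPS to 3.66 at 1 h and 4.55 at 4 h. The median −log10 q was 11.8, 14.0 and 13.4. Within the lists, width and fold enrichment were hardly correlated, with a Spearman rho of 0.056, 0.062 and 0.074. The part of enrichment or read depth in the growth and in the gained regions was not tested, and the lists carry no read totals.

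Where a domain grew was asked by setting its 2 ends apart. Of the 7535 domains, 1707 met no H3K4me3 peak in untreated cells and had a median width of 1895 bp, 5389 met 1 (4788 bp) and 439 met 2 or more (21374 bp). In 2571 of those with 1 H3K4me3 peak, its midpoint lay within the domain, in the outer 25% at one end. That end is called the H3K4me3 end and the opposite one the far end. In 2325 the midpoint lay beyond the edge and in 493 in the middle, and these were left out. The H3K4me3 end was at the lower coordinate in 1328 of the oriented domains and at the higher one in 1243.

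Along an oriented domain the cover of each mark changed with position. Since the domains were chosen and oriented by an H3K4me3 peak at one end, the course of H3K4me3 restates that choice. In untreated cells it covered 97.1% of the domains at 2.5% of the way from the H3K4me3 edge, 24.2% at 47.5% of the way and 2.68% at 97.5%. H3K27ac covered 96.9%, 32.3% and 12.7% at the same points. H3K36me3 ran the other way, with 1.98%, 59.1% and 87.0%. H3K36me2 was highest in the middle, at 3.50%, 42.6% and 19.6%. At 4 h H3K36me2 covered 5.68%, 56.8% and 30.3% at these points, and at 1 h 4.71%, 54.6% and 27.3%. H3K27ac in the middle was 32.2% at 1 h and 38.5% at 4 h. H3K36me3 there was 57.0% and 55.7%.

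**Figure D2:**
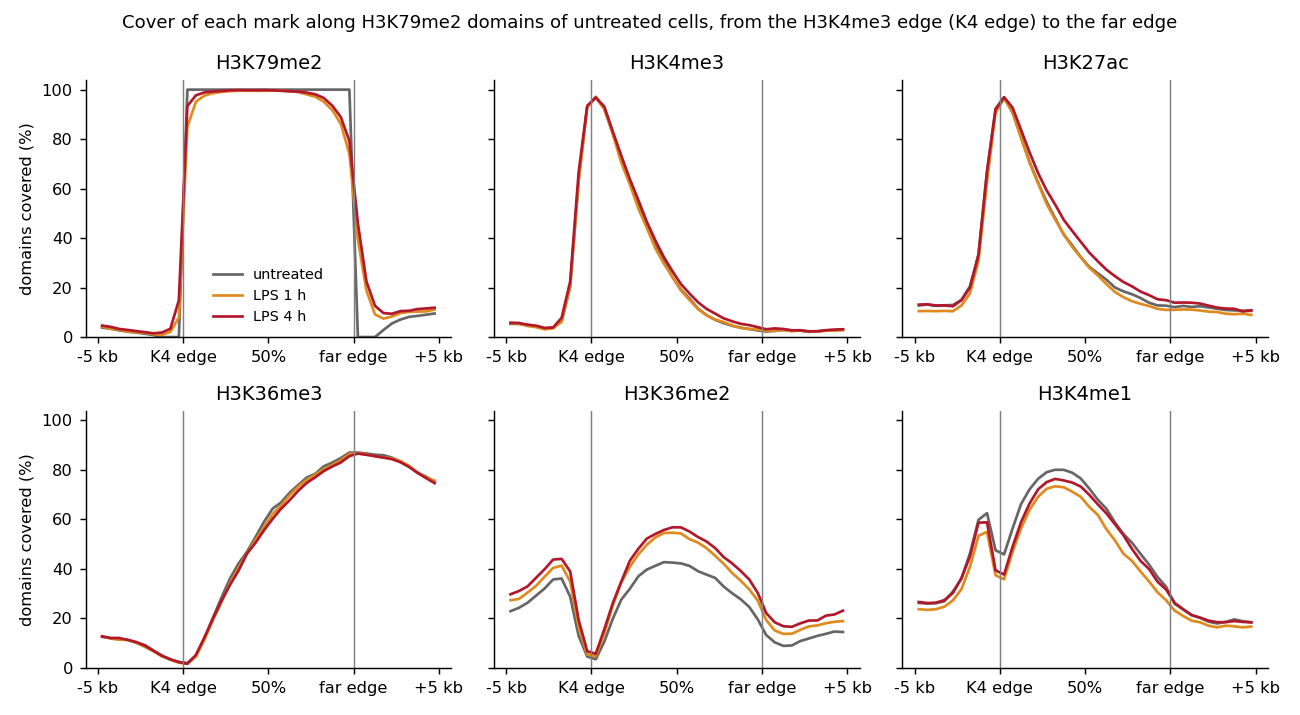
The percent of 2571 oriented H3K79me2 domains of untreated cells covered by peaks of 6 marks, from 5 kb before the H3K4me3 edge, along the domain scaled to its length, to 5 kb beyond the far edge, in untreated cells (grey), at 1 h (orange) and at 4 h (red). H3K4me3, which set the orientation, and H3K27ac are high at the start, H3K36me3 at the far edge (87.0% in untreated cells) and H3K36me2 in the middle, where it is 42.6% in untreated cells and 56.8% at 4 h.

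The far end moved further than the H3K4me3 end. At 1 h the median outward shift was 6 bp at the H3K4me3 end (1 to 10) and 115 bp at the far end (93 to 133). At 4 h it was 70 bp (66 to 75) and 197 bp (170 to 218). Domains were chosen by an untreated H3K4me3 end that reached past the H3K4me3 midpoint, and the same position is the baseline of its shift. The part of this choice in the difference was not tested. With midpoints beyond the edge included, the H3K4me3 end had medians of 18 bp at 1 h and 86.5 bp at 4 h. The far end then had 106 and 180 bp. At 1 h the H3K4me3 end moved out by 1 kb or more in 36 domains (1.40%) and the far end in 326 (12.7%), against 8.91% of all edges of the 7535 domains. At 4 h the counts were 60 (2.33%) and 413 (16.1%), against 11.1% of all edges. The far end was also the one that drew back: it moved in by 1 kb or more in 135 domains at 1 h and 115 at 4 h, the H3K4me3 end in 21 and 12, against 3.67% and 3.6% of all edges.

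Within single domains the same difference held. The far end moved out by more than the H3K4me3 end in 1515 of 2571 domains at 1 h (58.9%) and in 1493 at 4 h (58.1%). The median difference within a domain was 105 bp at 1 h (80 to 127) and 108 bp at 4 h (88 to 143). A shift past 1 kb was found at the far end alone in 321 domains at 1 h and 400 at 4 h, at the H3K4me3 end alone in 31 and 47, and at both in 5 and 13.

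**Figure D3:**
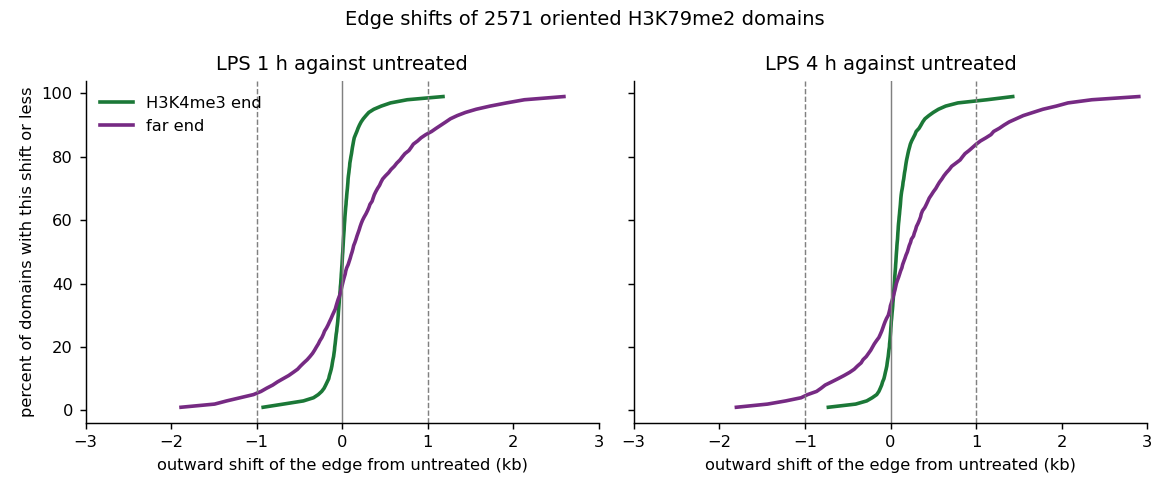
Cumulative percent of 2571 oriented domains by the outward shift of each edge from untreated cells, in kb, at 1 h (left) and 4 h (right), from the first to the last of 99 percentiles; dashed lines mark 1 kb out and 1 kb in. The curve of the far end is wider than that of the H3K4me3 end at both times, with 12.7% and 16.1% of far ends past 1 kb outward.

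The small shift of the H3K4me3 end at 4 h was nonetheless shared by most domains. It moved outward in 1942 of 2571 domains at 4 h (75.5%, 73.8 to 77.2) and in 1343 at 1 h (52.2%, 50.3 to 54.2). The far end moved outward in 1720 at 4 h (66.9%) and 1556 at 1 h (60.5%). Most of the shift of the H3K4me3 end came after the first hour: from 1 h to 4 h the median shift was 65 bp at the H3K4me3 end and 82 bp at the far end. The place of the H3K4me3 peak relative to the domain moved with it. Among domains with 1 H3K4me3 peak of the same time, its midpoint lay beyond the H3K79me2 edge in 43.1% of 5389 in untreated cells, 40.6% of 5420 at 1 h and 33.7% of 5450 at 4 h. H3K4me3 peaks were themselves a median of 68 bp wider at 4 h.

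Far-end shifts past 1 kb were more frequent in wide domains. In the narrowest quartile of oriented domains the far end moved out by 1 kb or more in 10.7% at 4 h and in by as much in 0.778%, and in the widest quartile in 18.5% and 8.71%. For the H3K4me3 end the shares moved out at 4 h did not rise steadily, at 1.24%, 2.64%, 1.40% and 4.04% from the narrowest quartile to the widest. The median far-end shift at 4 h was 177, 218, 233.5 and 148 bp in the same order, so it was smallest in the widest quartile.

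The stretches gained at the far end already lay in H3K36me3 chromatin. At 4 h, 1720 far ends had gained 1.17 Mb, and H3K36me3 peaks covered 90.7% of it before LPS, 91.0% at 1 h and 91.2% at 4 h. Under a −log10 q of 5 or more for the H3K36me3 peaks these stretches had 54.6% before LPS and 48.9% at 4 h. Far-end stretches lost at 4 h (849, 0.415 Mb) were covered by H3K36me3 at 90.0%, 89.3% and 88.6%. The 5 kb beyond the untreated far edge of all 2571 domains had 82.7% in untreated cells. H3K36me3 cover was thus high on both sides of the far edge, whether the edge moved out or in. H3K36me2 covered 15.3%, 19.7% and 22.1% of the gained and 19.4%, 26.3% and 31.6% of the lost stretches. H3K27ac covered 8.66%, 7.66% and 12.01% of the gained and 8.72%, 5.597% and 7.37% of the lost stretches.

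Stretches gained at the H3K4me3 end summed to 0.383 Mb at 4 h, in 1942 domains. In untreated cells H3K27ac covered 86.3% of them and H3K36me3 7.33%, and at 4 h these were 87.1% and 7.95%. H3K4me3 covered 84.6% and 85.8%, which is set by the orientation, since this end is the one where the H3K4me3 peak lies.

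The oriented domains were also grouped by the shift of the far end at 4 h. In the 413 domains whose far end moved out by 1 kb or more at 4 h, H3K36me3 covered 61.9% of the untreated domain before LPS, 62.3% at 1 h and 63.6% at 4 h. In the 2043 whose far end stayed within 1 kb it covered 59.3%, 58.7% and 56.8%, and in the 115 where it moved in 64.7%, 63.4% and 61.0%. The median untreated widths of these groups were 7458, 5946 and 11944 bp, in the same order as their untreated H3K36me3 cover, and the part of width was not tested. H3K36me3 cover was higher at 4 h than in untreated cells in the first of these groups and lower in the other two. H3K36me2 was higher at 4 h in each group: it covered 41.1% in untreated cells and 48.0% at 4 h in the first group, 42.1% and 52.7% in the second, and 44.6% and 55.5% in the third. H3K27ac covered 28.2% and 34.6%, 30.2% and 34.6%, and 21.6% and 24.9%.

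Contact with H3K4me3 was nearly the same at the 3 times. An H3K4me3 peak of the same time overlapped 59.1% of H3K79me2 peaks before LPS, 59.6% at 1 h (58.8 to 60.5) and 59.8% at 4 h (59.0 to 60.6). Seen from the promoter mark, 39.9% of H3K4me3 peaks met H3K79me2 before LPS (39.2 to 40.6), 41.6% at 1 h (40.9 to 42.2) and 41.3% at 4 h (40.6 to 41.9). Of the 9886 regions of all 3 times, 7575 met H3K4me3 at every time and 2076 at none. Contact was new at 4 h in 90 of them and lost in 80.

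Contact followed width. In untreated cells 25.6% of peaks under 1 kb met H3K4me3, 37.8% of those of 1 to 2 kb, 58.8% at 2 to 5 kb, 74.1% at 5 to 10 kb, 85.8% at 10 to 20 kb and 93.4% at 20 kb or more. At 4 h the lowest and highest of these classes had 24.6% and 93.8%. Among untreated peaks of 20 kb or more, 431 of 1235 met 2 or more H3K4me3 peaks.

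Contact also differed between the presence patterns, whose widths differ. H3K4me3 met 77.8% of all-times regions in untreated cells. It met 6.92% of untreated-only regions in untreated cells (5.28 to 9.002), 8.63% of 1 h only regions at 1 h (7.14 to 10.4) and 14.6% of 4 h only regions at 4 h (12.9 to 16.4). The 4 h only regions had met H3K4me3 in 12.9% before LPS, with 41 new contacts at 4 h and 14 lost. These 3 single-time patterns have nearly the same median width, but not the same upper range. The upper quartile was 1166 bp for untreated only, 1194.5 bp for 1 h only and 1259 bp for 4 h only. The widest regions had 3103, 4705 and 6406 bp. The part of width in these contacts was not tested. Regions of both LPS times met it in 27.0% at 4 h, those of untreated cells and 4 h in 25.6%, and those of untreated cells and 1 h in 16.6% at 1 h.

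Most short, single-time regions met an H3K36me3 peak and no H3K4me3 peak, though their distance to H3K4me3 was not measured. At the time of the region, 58.6% of untreated-only, 57.0% of 1 h only and 56.4% of 4 h only regions met H3K36me3 and no H3K4me3. Wholly inside an H3K36me3 peak lay 48.4%, 47.8% and 46.8%. Of the all-times regions 67.1% met both marks at 4 h, and 16.6% met H3K36me3 and no H3K4me3. Regions with none of H3K4me3, H3K36me3, H3K36me2 and H3K27ac were few, from 0.212% of all-times regions to 1.72% of those of untreated cells and 1 h.

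H3K36me3 cover was highest at a time when H3K79me2 was present in each of the 6 incomplete patterns. In patterns of 2 times the mark is present at 2 of 3 times, so this says little there. In untreated-only regions it was 55.9% of the length before LPS, 53.9% at 1 h and 52.1% at 4 h. In 1 h only regions it was 52.1%, 54.0% and 50.8%, and in 4 h only regions 53.0%, 53.9% and 56.7%. The regions of untreated cells and 1 h had 50.0%, 49.3% and 43.7%, and those of both LPS times 45.8%, 47.4% and 46.3%. In regions of untreated cells and 4 h the lowest value was not at 1 h, when the peak was absent: they had 48.3%, 48.6% and 49.6%. The differences are a few percentage points and come from single libraries.

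H3K36me2 cover was higher after LPS in every pattern. Over all regions it was 54.8% before LPS, 62.2% at 1 h and 64.1% at 4 h. In untreated-only regions, where H3K79me2 was lost, it was 62.7%, 66.2% and 69.4%, and in 4 h only regions 55.9%, 61.8% and 64.1%. The whole H3K36me2 list covered 281.1 Mb before LPS and 348.8 Mb at 4 h. When only H3K36me2 peaks with a −log10 q of 5 or more were used, the cover of all regions was 3.76%, 13.1% and 20.9%, and for H3K36me3 under the same threshold it was 32.1%, 35.4% and 26.5%.

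H3K27ac cover dipped at 1 h in every pattern, as its whole list did, which covered 83.6, 73.1 and 90.7 Mb. Over all regions it was 26.6%, 24.5% and 29.7%. In 4 h only regions it was 14.9% before LPS, 12.7% at 1 h and 18.6% at 4 h, and in untreated-only regions 9.01%, 5.56% and 8.36%. H3K27ac was thus higher at 4 h than before LPS where H3K79me2 had been gained at 4 h, and lower where it had been lost. It was also higher at 4 h in the patterns whose H3K79me2 presence was the same before LPS and at 4 h. All-times regions had 27.2% before LPS and 30.4% at 4 h, and 1 h only regions 8.69% and 9.44%. Regions of untreated cells and 4 h had 18.99% and 19.81%. The higher H3K27ac cover was therefore not particular to regions that had gained H3K79me2.

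**Figure D4:**
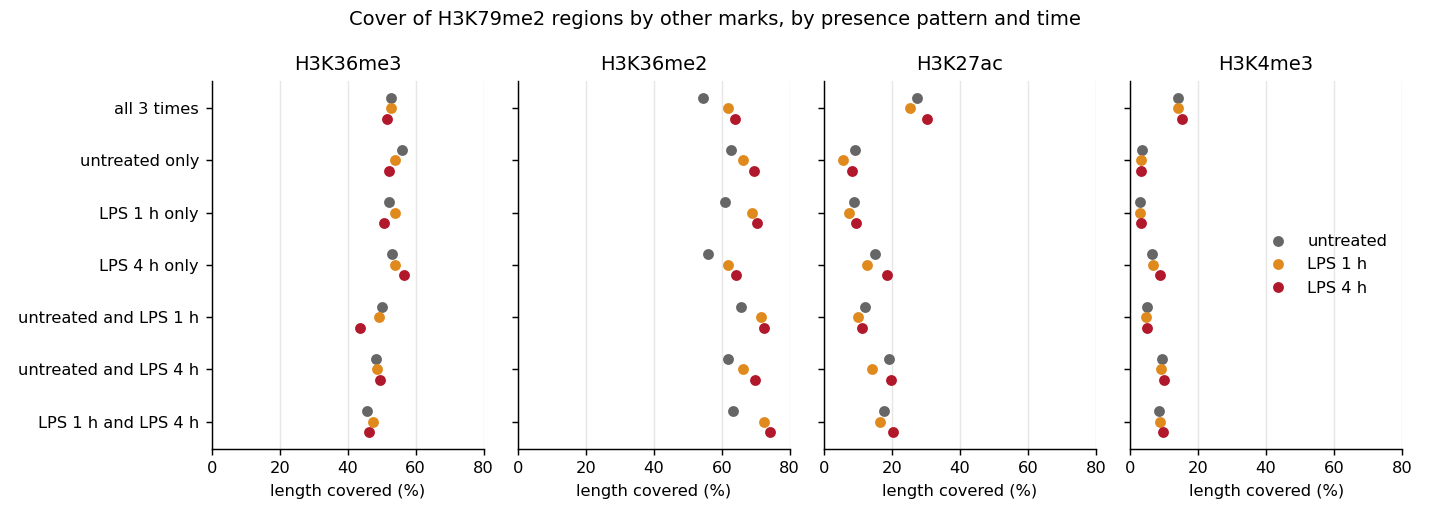
Percent of the length of H3K79me2 regions covered by H3K36me3, H3K36me2, H3K27ac and H3K4me3 peaks, for each presence pattern, in untreated cells (grey), at 1 h (orange) and at 4 h (red). H3K36me2 is lowest in untreated cells in all patterns, and H3K36me3 in 4 h only regions is highest at 4 h, at 56.7%.

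Single regions showed much larger differences in the companion marks. The widest 4 h only region lay on chromosome 11 (48901657 to 48908062, 6406 bp). H3K36me3 was absent from it before LPS and at 1 h, and at 4 h spanned it entirely. An H3K4me3 peak ended outside the region, at −0.667 kb from its lower end before LPS and −0.663 kb at 1 h, and at 4 h reached 1.82 kb into it. H3K36me2 covered 77.3% before LPS, 100% at 1 h and 30.3% at 4 h. The second widest, on chromosome 4 (119727015 to 119733270, 6256 bp), had H3K36me3 over 0%, 47.8% and 97.7% of its length, and an H3K4me3 peak that ended at −0.187 kb from its lower end before LPS. The third, on chromosome 2 (102686096 to 102692154, 6059 bp), differed from both: H3K36me3 covered it wholly at all times and no H3K4me3 peak met it.

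The regions that grew most at 4 h were of several kinds. On chromosome 3 (95458073 to 95482260) the peak was 16186 bp wide in untreated cells, 22254 bp at 1 h and 24021 bp at 4 h, in a region 97.0% covered by H3K27ac before LPS. On chromosome 6 (98955745 to 98965105) it was 1312, 9266 and 9000 bp wide, wholly within H3K36me3 and without H3K4me3. On chromosome 17 (30333360 to 30343430) it was 2558, 7166 and 10071 bp wide, and H3K36me3 covered 62.3%, 67.7% and 100% of the region. On chromosome 13 (75844888 to 75889779) it was 37970, 38412 and 44892 bp wide, and H3K36me3 covered 37.1%, 59.4% and 68.5%. At the last 2 of these regions peak width and H3K36me3 cover were both higher at 4 h than before LPS, but their steps differed. On chromosome 17 most of the growth came by 1 h and most of the H3K36me3 difference after it, and on chromosome 13 the reverse. The upper end on chromosome 13 moved from 38.6 to 44.9 kb from the lower end of the region. An untreated H3K36me3 peak already covered that stretch from 38.8 kb on. H3K36me3 did not differ by time at the second region.

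The domain with the largest far-end growth at both LPS times lay on chromosome 6 (140572251 to 140597785). Its far end was 5476 bp further out at 1 h and 5382 bp at 4 h, and its H3K4me3 end moved by −14 and 72 bp. H3K36me3 covered 80.8%, 77.1% and 84.8% of the region, and H3K27ac 12.5%, 12.5% and 33.0%. The second, on chromosome 1 (183114655 to 183145445), moved by 3801 and 3379 bp at the far end and by 580 and 1695 bp at the other. The third, on chromosome 15 (52544124 to 52550271), moved by 3695 and 3073 bp at the far end and by −37 and −56 bp at the other. The shifts at 1 h and 4 h share the untreated peak.

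Of the 3 domains that lost most width at 4 h, 2 held no H3K36me3 peak at any time. On chromosome 15 (8918444 to 8929900) the peak was 9614 bp in untreated cells, 11457 bp at 1 h and 5305 bp at 4 h. No H3K36me3 or H3K27ac peak lay there at any time, and H3K36me2 covered 3.05%, 23.5% and 52.1%. H3K27me3 covered 30.1%, 28.8% and 30.3% of it, far above its 0.206% over all H3K79me2 regions before LPS. On chromosome 1 (91442249 to 91447576) the widths were 5328, 2913 and 800 bp, without H3K36me3, H3K27ac or H3K4me3 and with H3K36me2 over 88.5%, 86.7% and 92.7%, and H3K27me3 covered 15.6% in untreated cells and none after LPS. On chromosome 6 (22286484 to 22305894) they were 19283, 14674 and 14661 bp, with H3K36me3 over 30.8%, 31.4% and 23.2%. The widest region of all, on chromosome 19 (16206205 to 16423808), kept its width, at 215618, 215147 and 216561 bp, while H3K36me3 over it was 75.1%, 72.6% and 65.3%.

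**Figure D5:**
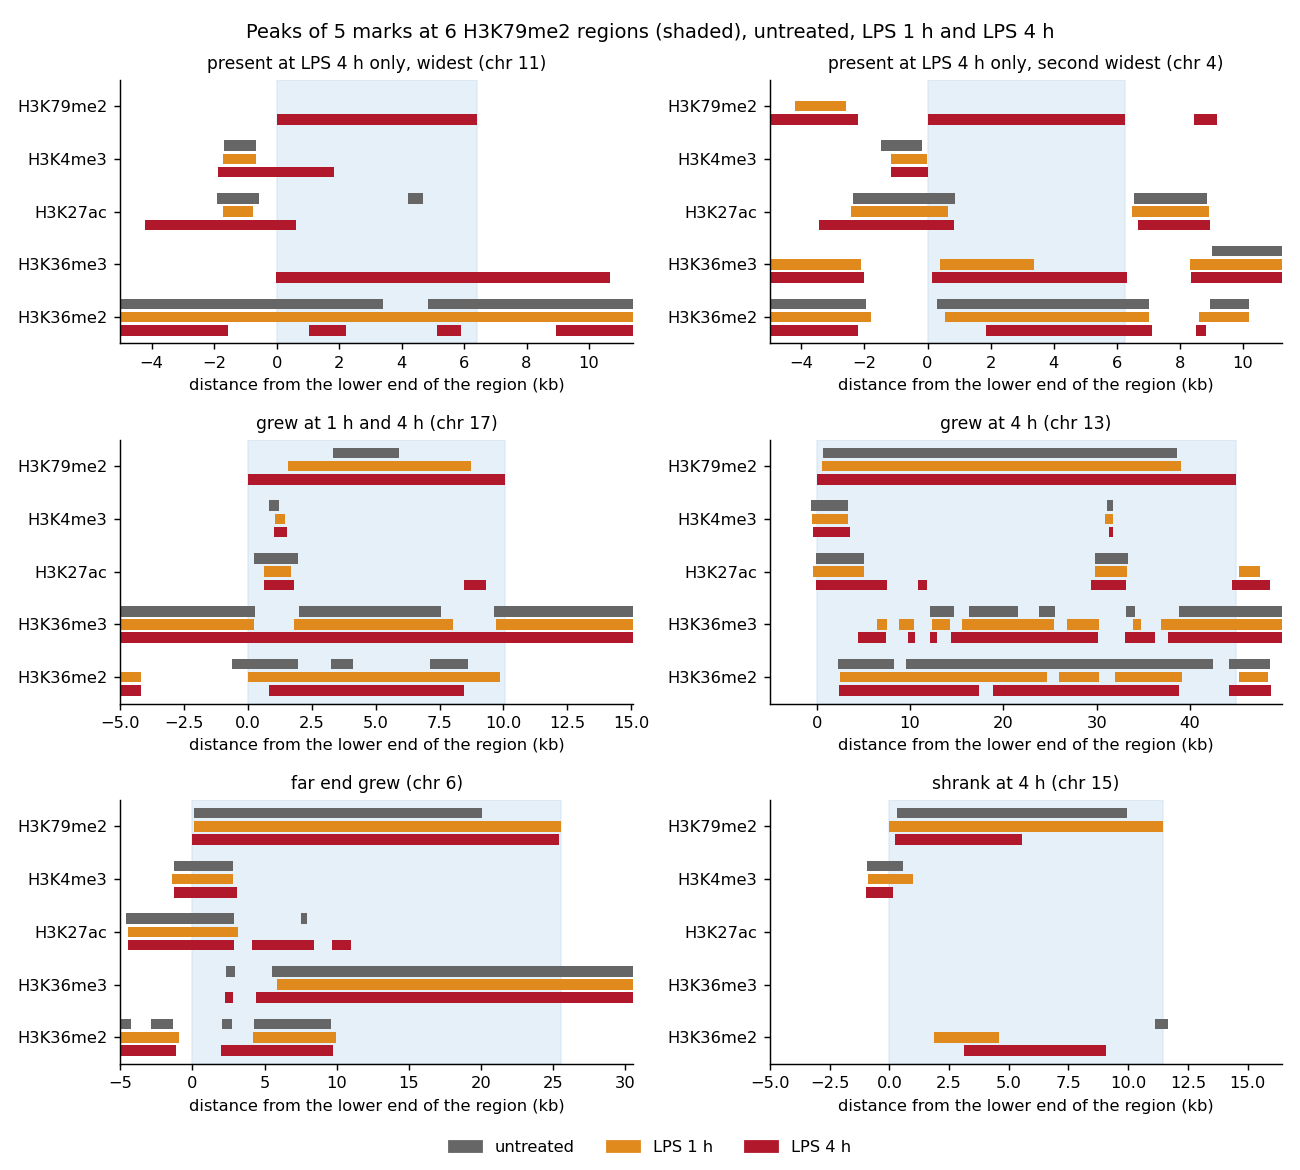
Peaks of 5 marks at 6 named H3K79me2 regions (shaded), by distance in kb from the lower end of the region and up to 5 kb beyond it, in untreated cells (grey), at 1 h (orange) and at 4 h (red). In the 4 h only regions H3K36me3 appears at 4 h with H3K79me2 on chromosome 11 and already at 1 h, before H3K79me2, on chromosome 4 (47.8% of the region), and on chromosome 15 the H3K79me2 peak is 9614, 11457 and 5305 bp wide without H3K36me3 or H3K27ac.

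How common such joint differences were was counted after these regions had been seen. A difference in H3K36me3 cover of 50 percentage points or more between untreated cells and 4 h was counted in regions at least 2 kb wide. Among the 116 of 4 h only, it was higher at 4 h in 11 (9.48%), the regions on chromosomes 11 and 4 included, and lower in 4 (3.45%). Of all 9667 regions of at least 2 kb these shares were 0.879% and 0.91%. All-times regions, which are wider, make up 8942 of the 9667, and the part of width was not tested. Among the 33 untreated-only regions of that width it was higher in 0 and lower in 3, and among the 94 of untreated cells and 1 h in 0 and 7. Among the 8942 all-times regions of at least 2 kb it was higher in 56 and lower in 64. It was higher in 12 and lower in 7 of the 308 regions of both LPS times of that width, and in 5 and 3 of the 106 of untreated cells and 4 h. The counts are small, and most wide 4 h only regions had no such difference. Over all widths the 4 h only regions were less one-sided. Of 1600, H3K36me3 was higher by that much in 89 (5.56%) and lower in 58 (3.625%). In the 723 untreated-only regions these were 23 and 45 (3.18% and 6.22%). The 1147 regions of 1 h only had 33 and 45 (2.88% and 3.92%), and the 9886 of all 3 times 67 and 88 (0.678% and 0.890%). H3K27ac was higher by that much in 9 of the 116 (7.76%) and lower in 1 (0.862%), against 1.43% and 0.703% of all 9667. In the 8942 it was higher in 122 and lower in 63. Over all widths H3K27ac was higher in 86 and lower in 36 of the 1600 regions of 4 h only, and higher in 11 and lower in 17 of the 723. It was higher in 31 and lower in 28 of the 1147, and higher in 149 and lower in 94 of the 9886. H3K36me2 was higher by that much in 170 and lower in 27 of the 1600, and in 353 and 27 of the 9886.

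Among the remaining widest regions of each incomplete pattern, the companion marks were the same at all times in some and differed in others. The widest untreated-only regions, on chromosome 9 (59246576 to 59249678 and 67733290 to 67735920), were wholly in H3K36me3 throughout, and that on chromosome 3 (19162420 to 19165315) wholly in H3K36me2. The widest 1 h only region, on chromosome 12 (38017128 to 38021832, 4705 bp), was wholly in H3K36me2 at each time and had no H3K36me3. The next, on chromosome 1 (59857920 to 59862539), had H3K36me3 over 43.0% at 1 h and none at the other times. The third, on chromosome 11 (61558600 to 61562675), was wholly in H3K36me3, with H3K27ac over 16.4%, 0% and 13.1%. The widest region of untreated cells and 4 h, on chromosome 10 (122244930 to 122251930, 7001 bp), held H3K79me2 over 2591 bp in untreated cells and 6731 bp at 4 h, and H3K27ac over 27.8%, 25.3% and 51.7%. The next, on chromosome 1 (155164504 to 155170683), had H3K36me3 over 59.2%, 62.7% and 81.1%, and H3K79me2 over 601 bp in untreated cells and 6180 bp at 4 h. Of the regions of both LPS times, that on chromosome 6 (97896534 to 97905715) was wholly in H3K36me3 and had H3K36me2 over 58.2%, 80.2% and 80.3%, and that on chromosome 3 (142041172 to 142047751) had H3K36me3 over 73.5% before LPS and all of it after. Of the regions of untreated cells and 1 h, that on chromosome 5 (122205321 to 122209558) was wholly in H3K36me3 and had H3K36me2 over 32.1%, 53.8% and 91.0%.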

How the data were processed

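Per the submitters' processing notes, the build was mm9, Bowtie 1.0.1 was the aligner and MACS2 the peak caller. How peaks were called, against which control and from how many reads is not stated in the labels or files, so depth and the precision it gives are unknown. The lists hold broad peaks, and the PU.1 list narrow ones. The fold enrichment (a ratio), the −log10 p, the −log10 q and the score of each peak are the authors' deposited values.

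Samples were grouped by the labels, 1 per mark and time. Peaks on 20 chromosomes were used, and an overlap of at least 1 bp counted as shared. Computed here were merged regions and their presence patterns, width and edge changes (1 kb or more was called), contact with H3K4me3, and the percent of length covered by each mark. The steps recovered known answers on simulated lists. No test across samples is possible. Python 3.11.15, numpy 2.4.6 and scipy 1.17.1 were used.

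Named regions are the 3 widest of each pattern, the 4 one-to-one regions that grew most and 3 that shrank most at 4 h, and the 3 oriented domains with the largest far-end growth; not all are printed. The regions and rules were chosen with earlier results of these data known. Alternatives changed the −log10 q (at least 5), the merging, the presence rule, the peak width, the thresholds, the placing of H3K4me3 and the smallest stretch. The planned gene lists were not run, since no mm9 annotation was used, and the segmentations, the flavopiridol lists and the input samples were left out.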

Additional observations from a re-analysis of the deposited data

How the results depend on the processing

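The alternatives gave 120 values that could move, of which 72 stayed within the limits used here (counts within 1.5 times, shares and medians within the 95% interval of the reported value) and 48 did not. For a percent of length that interval treats the value as a share of regions or stretches. It is thus a nominal limit there and not a 95% interval. Others were fixed by construction: 13 values when peaks within 1 kb were merged, since the smallest gap between peaks of a list was 1217 bp, and 4 medians under another threshold on the change. All values stayed when all sequences were used, presence needed 50% cover, equal numbers of the widest peaks were taken, regions were at least 2 kb wide, or H3K4me3 peaks of 4 h gave the orientation.

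With H3K79me2 peaks at a −log10 q of 5 or more, the regions numbered 5372 for all 3 times, 1017 for untreated and 1 h, 965 for untreated and 4 h and 1315 for both LPS times. Those of a single time numbered 1032 for untreated, 1606 for 1 h and 1892 for 4 h, each above its count without the threshold. Domains grown were then 19.3% at 1 h and 25.1% at 4 h, with a median change of 346.5 bp at 4 h. The H3K4me3 end moved out in 2.14% at 1 h and 3.07% at 4 h, and the far end in 15.1% and 18.05%. Peaks of at least 1 kb left 431 untreated-only, 714 of 1 h only and 1033 of 4 h only. Past 500 bp, 32.2% of domains grew and 14.3% shrank at 1 h, and 40.3% and 11.9% at 4 h. Past 2 kb these were 5.07% and 1.11%, and 6.70% and 1.06%.

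With the H3K4me3 midpoint in the outer 10%, the far end moved out in 14.1% at 1 h, and the median of the H3K4me3 end was 78 bp at 4 h. With midpoints beyond the edge included, an alternative added after the data were seen (4896 domains), that median was 18 bp at 1 h and 86.5 bp at 4 h. Contact was 64.9%, 65.6% and 65.6% within 1 kb, 65.6%, 66.1% and 66.6% for H3K79me2 peaks of at least 1 kb, and 60.7% at 4 h for both marks at the −log10 q of 5.

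Under that threshold on the other mark, cover was 32.1%, 35.4% and 26.5% for H3K36me3, 3.76%, 13.1% and 20.9% for H3K36me2, and 24.4%, 21.3% and 26.7% for H3K27ac. In far-end stretches gained at 4 h, H3K36me3 was then 54.6% before LPS and 48.9% at 4 h, so the order of these times turned, and H3K36me2 was 0.863% and 6.67%. For stretches of at least 500 bp H3K36me3 was 92.5% at 4 h and H3K27ac 6.998% before LPS. The cause of these shifts was not tested, except that a stricter or looser threshold keeps fewer or more domains by construction.

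No paired analysis was possible because each mark and time has 1 library, and for the same reason no replicate was left out. Read depth is unknown.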
